A study of Mus musculus with 22 samples.

Results

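The reactive astrocyte genes described here are Gfap, Vim, Serpina3n, Lcn2, Timp1, Cd44, Osmr, S1pr3, Steap4 and Emp1, a set of 10 genes picked by name because they are widely used to recognise reactive astrocytes. All 10 were found among the 21995 genes of the deposited tables. They were followed in whole spinal cord of 22 mice of the C57BL/6 strain, with 1 RNA-seq library per mouse. In the aging experiment, 8 young wild-type mice of 3 to 4 months were set against 8 old wild-type mice of 18 to 24 months, all male, with libraries made by the Roche KAPA HyperPrep kit. In the ALS experiment, 3 wild-type control mice were set against 3 mice of the high copy SOD1G93A line, in which a transgene for mutant human SOD1 is present in many copies and motor neuron disease develops. These 6 mice were 5 to 6 months old by the sample labels and 5 months by the study's methods, each group held 2 females and 1 male, and their libraries were made by the Illumina TruSeq kit. The mice carrying the transgene had symptoms when the cords were taken. The sex of each library is not given in the labels and was not a term of any fit. The study asked how far the transcripts of the aged spinal cord and of the ALS spinal cord change together, and the 2 comparisons share no mice.

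Astrocytes are the glial cells that clear transmitter and potassium around neurons and contact blood vessels. After injury, inflammation or loss of neurons they become reactive, which means that they enlarge, assemble more intermediate filament protein and switch on secreted proteins and surface receptors. Cytokines of the interleukin-6 family, acting through the shared receptor chain gp130 and the transcription factor STAT3, and interleukin-1, tumor necrosis factor and complement C1q from microglia are known signals for this state. The genes fall into 3 groups by role. Gfap and Vim encode intermediate filament proteins. Serpina3n, Lcn2 and Timp1 encode secreted proteins. Cd44, Osmr, S1pr3, Steap4 and Emp1 encode receptors and other membrane proteins. Several of them are not particular to astrocytes, and Vim and Cd44, for example, are also made by vascular and immune cells.

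The libraries held from 5078092 to 9358055 counts in young mice, from 5664869 to 9145600 in old mice, from 10693060 to 13219797 in control mice and from 9675610 to 11872431 in SOD1G93A mice. Levels are given as CPM, in which counts are divided by the scaled size of the library, and 3 counts, the smallest amount that such a library can be said to show, corresponded to between 0.231 and 0.582 CPM. This limit covers counting error only. Mouse Sod1, onto which reads of the human transgene can fall, was at 168, 156 and 156 CPM in the control libraries and at 298, 296 and 335 CPM in the SOD1G93A libraries, so the groups were apart as labelled. Neuron, oligodendrocyte and astrocyte markers were present in every library, whereas the summed level of 8 neutrophil markers did not pass 3.81 CPM and the neutrophil gene Elane had no count in the young, old or control libraries. Libraries are lettered in the order of the columns of the tables within each group. 1 old library, F, stood apart. It had the lowest summed microglia markers of the old mice, 619 CPM against 833 to 1032 CPM in the other 7, the highest summed neuron markers, 6166 CPM against 4391 to 5491 CPM, and the largest share of counts in its 10 most abundant genes, 15.1%.

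The stretches upstream of 3 of the genes are shown because they hold the letters of binding motifs of the factors known for this program, and because they carry no annotated exon of the gene over the bases printed. They come from RefSeq on GRCm38.p6, all on the plus strand, and capitals mark the motif matches. The Serpina3n stretch lies at chr12:104406458-104406707, the 250 bases before the RefSeq start, with 1 match to the NF-kB letters. The Steap4 stretch lies at chr5:7960222-7960456 and holds in turn a match to NF-kB, STAT and C/EBP. The Emp1 stretch lies at chr6:135362708-135362903, inside the annotated gene between exons of its transcripts, and holds a match to AP-1 and to STAT.
Serpina3n: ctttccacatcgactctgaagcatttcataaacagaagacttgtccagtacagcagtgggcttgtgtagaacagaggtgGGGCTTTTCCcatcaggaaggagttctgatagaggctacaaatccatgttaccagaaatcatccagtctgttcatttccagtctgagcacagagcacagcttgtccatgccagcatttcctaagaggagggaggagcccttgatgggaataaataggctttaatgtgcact
Steap4: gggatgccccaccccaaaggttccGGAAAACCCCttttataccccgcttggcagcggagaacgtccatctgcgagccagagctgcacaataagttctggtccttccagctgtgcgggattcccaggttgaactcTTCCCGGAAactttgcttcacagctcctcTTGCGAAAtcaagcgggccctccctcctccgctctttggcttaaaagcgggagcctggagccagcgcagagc
Emp1: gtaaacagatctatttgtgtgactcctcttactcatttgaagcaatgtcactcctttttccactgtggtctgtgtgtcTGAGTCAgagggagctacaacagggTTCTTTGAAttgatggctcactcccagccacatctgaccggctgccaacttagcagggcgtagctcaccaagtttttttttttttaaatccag
The letters searched on both strands were TTCNNNGAA for STAT, GGG and TTTCC parted by 2 free bases for NF-kB, TGANTCA for AP-1, and TTGCNNAA for C/EBP. RefSeq gave 11 windows of 300 bases, 250 before and 50 after a start, for the 10 genes. STAT letters stood in 3 of the 11 windows, against 8.30% of 32851 mouse promoters of the same length, and NF-kB letters stood in 3, against 1.63%. AP-1 letters stood in 2 windows, against 7.81% of promoters, and C/EBP letters in 2, against 10.8%. Some counted windows overlap annotated exons of the gene itself. All 250 upstream bases of the Vim window, counted for NF-kB, and of the Osmr window, counted for AP-1, lie in such exons. So do 197 of the 250 for Lcn2, counted for C/EBP. Emp1 is counted with a second window. Near the Emp1 start a second STAT match and a second AP-1 match overlap each other. A match describes letters in a window and not a bound site, and the windows of Cd44, Timp1 and S1pr3 held none of these letters.

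Most of the set was higher in old mice. Of the 9 genes that had enough counts to be tested, 8 were higher in old than in young mice at an adjusted p-value under 0.05, against 13.5% of the 13647 genes tested, and 7 also passed a log2 fold change of 1, against 2.18% of genes. These 7 were Timp1, Vim, Serpina3n, Osmr, Emp1, S1pr3 and Cd44. Gfap passed the p-value alone, Lcn2 passed neither threshold, and Steap4 had too few counts to be tested. All adjusted p-values are from edgeR's quasi-likelihood test, with Benjamini-Hochberg adjustment taken over every gene tested. For 5 genes, Vim, Serpina3n, Cd44, Timp1 and Osmr, every old library lay above every young library, which held for 3.66% of genes. The median log2 fold change was 1.22 over the 9 tested genes and -0.0027 over all genes tested. In whole tissue, more astrocytes, more RNA per astrocyte and RNA from other cells that make these genes cannot be told apart.

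**Figure D1:**
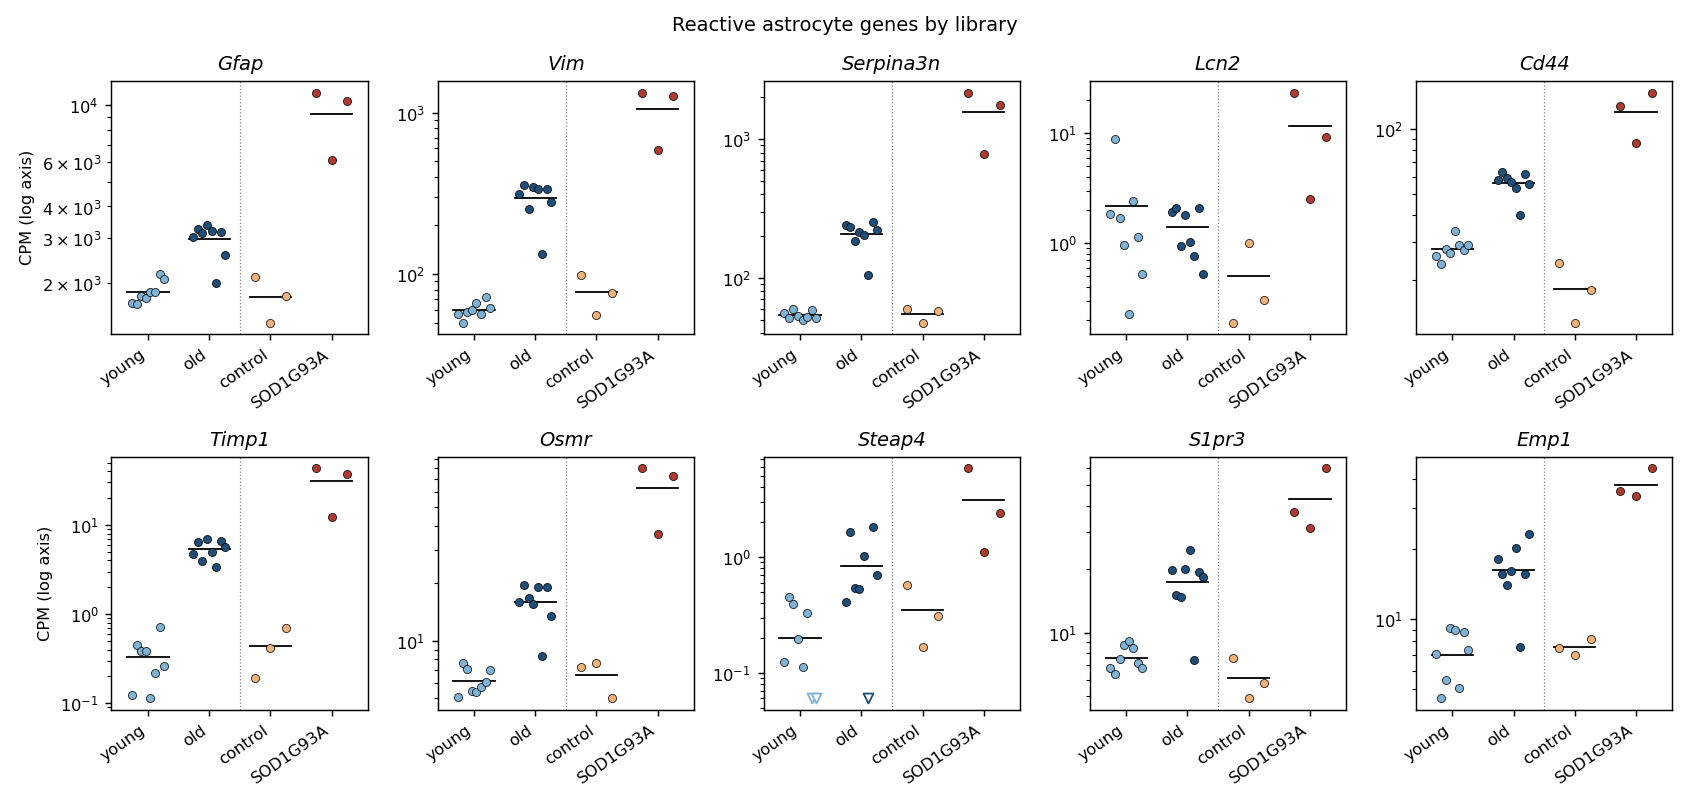
Level of each reactive astrocyte gene in every library, as CPM on a log axis, in 8 young, 8 old, 3 control and 3 SOD1G93A mice. Points are libraries, horizontal bars are group means, and open triangles at the foot of the Steap4 panel are libraries with no count. The dotted line parts the 2 experiments, which used different kits. The SOD1G93A libraries lie above the control libraries in all 10 panels, and 1 old library, F, lies below the other old libraries in 9 of them.

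Among the intermediate filament genes, Vim moved more than Gfap. Gfap, which encodes the main filament protein of mature astrocytes, ranged from 1654 to 2164 CPM in young mice with a median of 1804 CPM, and from 1999 to 3371 CPM in old mice with a median of 3167 CPM. Old library F lay below 2 of the young libraries, and the other 7 old libraries lay above all of the young ones. The log2 fold change was 0.69 (SE 0.083, n = 8 and 8), which is 1.62-fold, with an adjusted p of 1.31e-06 in edgeR's quasi-likelihood test. Vim, which encodes vimentin, the filament protein of immature and reactive astrocytes, ranged from 49.9 to 71.9 CPM in young mice with a median of 59.3 CPM. In old mice Vim ranged from 132 to 355 CPM with a median of 324 CPM. No old library reached down to the young range. Vim was 4.89-fold higher in old mice, a log2 fold change of 2.29 (SE 0.139, n = 8 and 8), with an adjusted p of 2.74e-11 in edgeR's quasi-likelihood test.

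The secreted proteins divided in aging, with Serpina3n and Timp1 higher in old mice and Lcn2 not past the test. Serpina3n, which encodes a secreted inhibitor of serine proteases, ranged from 49.5 to 59.6 CPM in young mice with a median of 52.7 CPM, and from 106 to 252 CPM in old mice with a median of 217 CPM. The young libraries lay close together, with a coefficient of variation of 6.60%, and all old libraries were above them. The log2 fold change was 1.94 (SE 0.117), which is 3.83-fold, with an adjusted p of 2.43e-11 in edgeR's quasi-likelihood test. Serpina3n lies on chromosome 12 among near copies, and how reads were divided between them was not tested. In the aging libraries the most abundant copies, Serpina3g and Serpina3c, had at most 20 counts in a library and Serpina3n at least 273.

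Timp1, which encodes an inhibitor of matrix metalloproteinases, was close to absent in young mice, with 1 to 5 counts per library and a median of 0.325 CPM. Old libraries held 22 to 66 counts, from 3.39 to 7.04 CPM with a median of 5.28 CPM. The groups did not overlap. Timp1 had the largest fold change of the set in aging, 15.9-fold, a log2 fold change of 3.99 (SE 0.269) with an adjusted p of 1.41e-10 in edgeR's quasi-likelihood test, and it rests on few young counts. Timp1 lies within Syn1 on the other strand without sharing exon bases, and Syn1, a neuronal gene, had a log2 difference of -0.02 in aging with an adjusted p of 0.867 in the same test.

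Lcn2, which encodes lipocalin 2, a secreted protein that binds iron carriers, had from 2 to 77 counts in young libraries and from 3 to 18 in old libraries. Young library B alone held the 77 counts, 8.76 CPM, where the other 7 young libraries lay from 0.226 to 2.41 CPM. The old libraries lay from 0.525 to 2.11 CPM with a median of 1.42 CPM, beside a young median of 1.41 CPM. The groups overlapped throughout. The log2 difference was -0.66 (SE 0.495) with an adjusted p of 0.352 in edgeR's quasi-likelihood test, and without young library B it was 0.16 with an adjusted p of 0.796.

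Of the receptor and membrane genes, 4 were higher in old mice past both thresholds. Cd44, which encodes a receptor for hyaluronan in the matrix, ranged from 23.8 to 33.7 CPM in young mice with a median of 27.6 CPM, and from 40.1 to 63.2 CPM in old mice with a median of 57.3 CPM. The groups were separate, and the lowest old library was again F. Cd44 was 2.01-fold higher, at a log2 fold change of 1.0 (SE 0.080) with an adjusted p of 2.22e-09 in edgeR's quasi-likelihood test, so it sat at the fold threshold itself. It fell under that threshold when any of young libraries A, B, C, D or G or old libraries A, B, C or G was left out, with a log2 fold change between 0.97 and 1.06 over all such fits, while its adjusted p stayed at or below 1.62e-08.

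Osmr encodes the receptor chain for oncostatin M, which pairs with gp130 and signals to STAT3. It ranged from 5.07 to 7.63 CPM in young mice with a median of 5.89 CPM, and from 8.33 to 19.7 CPM in old mice with a median of 16.3 CPM. The groups were separate, although old library F lay just above the highest young library. The log2 fold change was 1.37 (SE 0.143), which is 2.58-fold, with an adjusted p of 1.54e-07 in edgeR's quasi-likelihood test.

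S1pr3, which encodes a receptor for the lipid sphingosine 1-phosphate, ranged from 6.37 to 9.16 CPM in young mice with a median of 7.37 CPM, and from 7.40 to 24.6 CPM in old mice with a median of 18.8 CPM. Emp1, which encodes a small protein that spans the cell membrane, ranged from 4.55 to 9.12 CPM in young mice with a median of 7.18 CPM, and from 7.56 to 23.1 CPM in old mice with a median of 15.9 CPM. In both genes old library F lay inside the young range and the other 7 old libraries lay above it. The log2 fold change was 1.20 (SE 0.161, adjusted p of 5.97e-06) for S1pr3 and 1.22 (SE 0.176, adjusted p of 1.51e-05) for Emp1 in edgeR's quasi-likelihood test. A non-coding gene on the other strand, Gm32834, shares 45 exon bases with S1pr3, and whether the counting used the strand is not given in the sources used here.

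Steap4, which encodes a membrane enzyme that reduces iron and copper, had at most 4 counts in a young library and at most 14 in an old library. Old levels ran from 0 to 1.81 CPM with a median of 0.619 CPM, and young levels from 0 to 0.455 CPM with a median of 0.159 CPM. The groups overlapped, with library F at 0 counts, and the gene was removed by the filter on low counts. With no such filter the log2 difference was 1.93 (SE 0.566) with an adjusted p of 0.0162 in edgeR's quasi-likelihood test over 18634 genes, and DESeq2 gave 2.02 (SE 0.648) with an adjusted p of 0.0111.

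**Figure D2:**
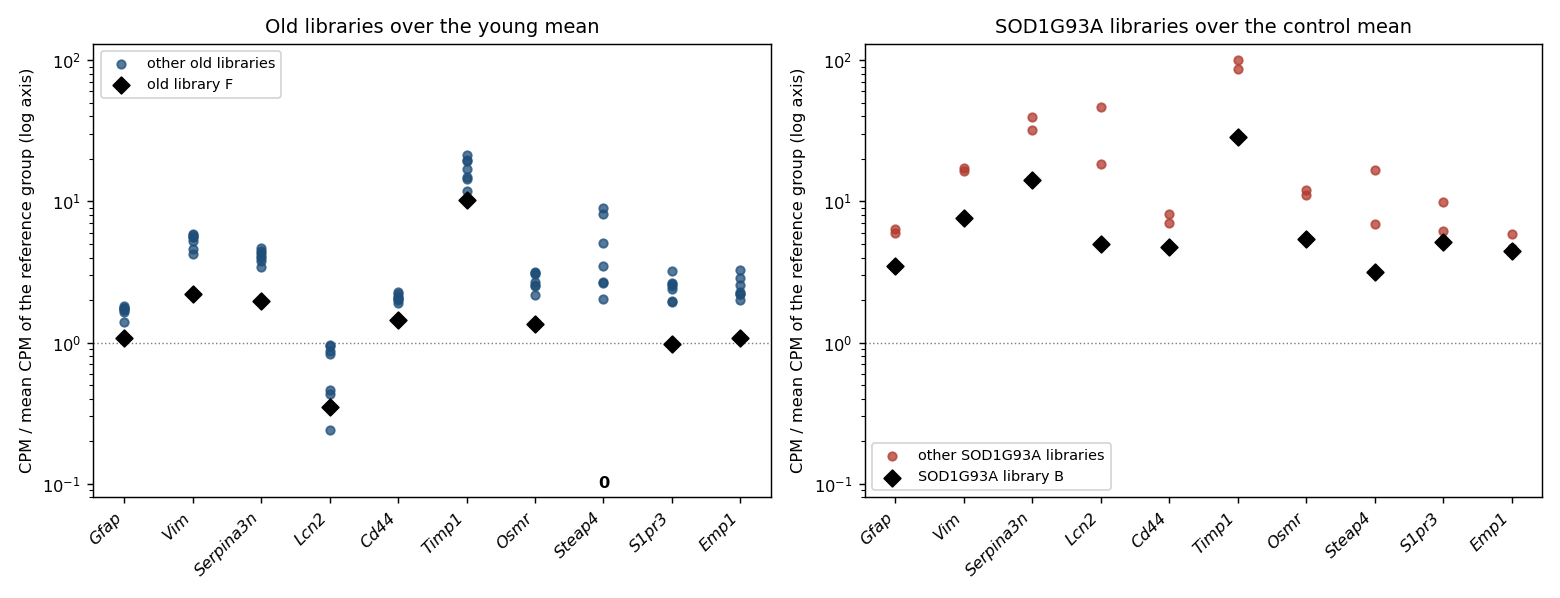
Level of each reactive astrocyte gene in single old libraries (left) over the mean of the 8 young libraries, and in single SOD1G93A libraries (right) over the mean of the 3 control libraries, on a log axis, where the dotted line marks a ratio of 1. Black diamonds are old library F and SOD1G93A library B. Library F is the lowest old library for 9 of the 10 genes, with no Steap4 count (marked 0), and library B is the lowest SOD1G93A library for all 10.

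Among the old mice, library F was lowest in 9 of the 10 genes and second lowest in Lcn2. Its ratio to the young mean was 1.08 for Gfap, 2.20 for Vim, 1.95 for Serpina3n and 10.2 for Timp1, whereas the other 7 old libraries reached 1.40 to 1.83 for Gfap, 4.21 to 5.90 for Vim, 3.41 to 4.66 for Serpina3n and 11.8 to 21.2 for Timp1. With library F left out, the old and young groups were separate for 8 of the 10 genes, all but Lcn2 and Steap4. The share of all genes that were separate without F was not counted. Leaving out F, the lowest library for most of these genes, favours such a separation. The same 7 genes passed both thresholds without F, against 334 of the 13745 genes then tested. The log2 fold changes were then 0.76 for Gfap, 2.40 for Vim, 2.03 for Serpina3n and 1.31 for S1pr3.

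In the SOD1G93A cord all 10 genes were higher than in control mice past both thresholds, against 8.5% of the 14386 genes tested, and all 10 passed the adjusted p, against 18.4%. Every SOD1G93A library lay above every control library for each of the 10, which held for 25.7% of genes. The median log2 fold change was 3.22 over the 10 genes and 0.0031 over all genes tested. The fold changes ran from 4.98 for Emp1 to 67.6 for Timp1.

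Both filament genes rose in the SOD1G93A cord. Gfap was at 2104, 1395 and 1775 CPM in control libraries A, B and C and at 11229, 6110 and 10436 CPM in SOD1G93A libraries A, B and C. Its log2 fold change was 2.40 (SE 0.244, n = 3 and 3), which is 5.27-fold, with an adjusted p of 0.000308 in edgeR's quasi-likelihood test. Vim was at 98.6, 55.3 and 76.7 CPM in control libraries and at 1330, 582 and 1264 CPM in SOD1G93A libraries. Even SOD1G93A library B, the lowest, held more Vim than any control library, and the log2 fold change was 3.79 (SE 0.339), which is 13.8-fold, with an adjusted p of 0.000202 in edgeR's quasi-likelihood test.

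All 3 secreted protein genes rose. Serpina3n was at 59.8, 47.6 and 57.9 CPM in control libraries and at 2166, 783 and 1775 CPM in SOD1G93A libraries. It was 28.6-fold higher, a log2 fold change of 4.84 (SE 0.359) with an adjusted p of 0.000113 in edgeR's quasi-likelihood test. Its near copies Serpina3i and Serpina3m, with at most 2 counts in a control library, reached 52 and 101 counts in an SOD1G93A library, where Serpina3n had at least 7776.

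Timp1 was at 0.190, 0.421 and 0.692 CPM in control libraries, which is 2, 5 and 9 counts, and at 43.2, 12.4 and 37.5 CPM in SOD1G93A libraries. Its log2 fold change of 6.08 (SE 0.606, adjusted p of 0.000282 in edgeR's quasi-likelihood test) was the largest of the set, and it again rests on few control counts. Its host gene Syn1 went the other way, with a log2 fold change of -0.65 and an adjusted p of 0.0074 in the same test.

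Lcn2 rose in the SOD1G93A cord, where it had not passed the test in aging. It was at 0.190, 1.01 and 0.307 CPM in control libraries and at 23.4, 2.52 and 9.22 CPM in SOD1G93A libraries. The groups were separate, but the 3 SOD1G93A libraries differed widely, with a coefficient of variation of 91.0%. The log2 fold change was 4.51 (SE 0.874) with an adjusted p of 0.00588 in edgeR's quasi-likelihood test. It was 3.52 without SOD1G93A library A and 5.47 without control library B. Lcn2 is also a neutrophil granule gene. The summed level of the 8 neutrophil markers ranged from 0 to 1.80 CPM in control and from 0.906 to 2.97 CPM in SOD1G93A libraries, with Elane and Retnlg at 0 in control mice, and none of the 8 had enough counts for the test. Ltf and Retnlg, at most 7 counts in a library, were higher in every SOD1G93A library than in any control library. The part of neutrophils in the level of Lcn2 was not tested.

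All 5 membrane protein genes rose. Osmr was at 7.31, 7.66 and 4.99 CPM in control libraries and at 80.1, 36.3 and 73.3 CPM in SOD1G93A libraries, a log2 fold change of 3.26 (SE 0.309, adjusted p of 0.000241 in edgeR's quasi-likelihood test). Steap4 was at 0.569, 0.168 and 0.307 CPM, which is at most 6 counts, in control libraries and at 5.85, 1.11 and 2.42 CPM in SOD1G93A libraries. Steap4 was therefore a low gene in both groups, with 11 counts in library B, and its log2 fold change of 3.17 (SE 0.705, adjusted p of 0.00998 in edgeR's quasi-likelihood test) is the second least precise of the set after Lcn2. It was 2.35 without SOD1G93A library A, with an adjusted p of 0.0231 in the same test.

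Cd44, S1pr3 and Emp1 were highest in SOD1G93A library C, whereas the other 7 genes were highest in library A. Cd44 was at 23.9, 12.7 and 18.0 CPM in control libraries and at 127, 85.9 and 147 CPM in SOD1G93A libraries, a log2 fold change of 2.73 (SE 0.250, adjusted p of 0.000228). S1pr3 was at 7.59, 4.88 and 5.76 CPM in control libraries and at 37.4, 31.3 and 60.2 CPM in SOD1G93A libraries, a log2 fold change of 2.83 (SE 0.269, adjusted p of 0.000246). Emp1 was at 7.50, 6.99 and 8.22 CPM in control libraries and at 35.2, 33.6 and 44.3 CPM in SOD1G93A libraries. Emp1 had the smallest standard error of the set, with a log2 fold change of 2.31 (SE 0.146, adjusted p of 8.14e-05, edgeR's quasi-likelihood test for the 3 genes).

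SOD1G93A library B was the lowest of its group for all 10 genes. Its ratio to the control mean was 3.48 for Gfap, 7.57 for Vim and 14.2 for Serpina3n, against 6.39, 17.3 and 39.3 in library A. The same library had the lowest summed microglia markers, 1526 CPM against 2930 and 2294 CPM in A and C, and the highest summed neuron markers, 4176 CPM against 2495 and 2807 CPM. The part of these in the level of the 10 genes was not tested. With any 1 of the 6 libraries of this experiment left out, all 10 genes still passed both thresholds. Of all genes tested, between 1006 of 14528 (without SOD1G93A library C) and 1520 of 14584 (without SOD1G93A library B) did so in these fits. The margin was narrow for Steap4 and Lcn2, whose adjusted p reached 0.0477 and 0.0358 in edgeR's quasi-likelihood test.

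**Figure D3:**
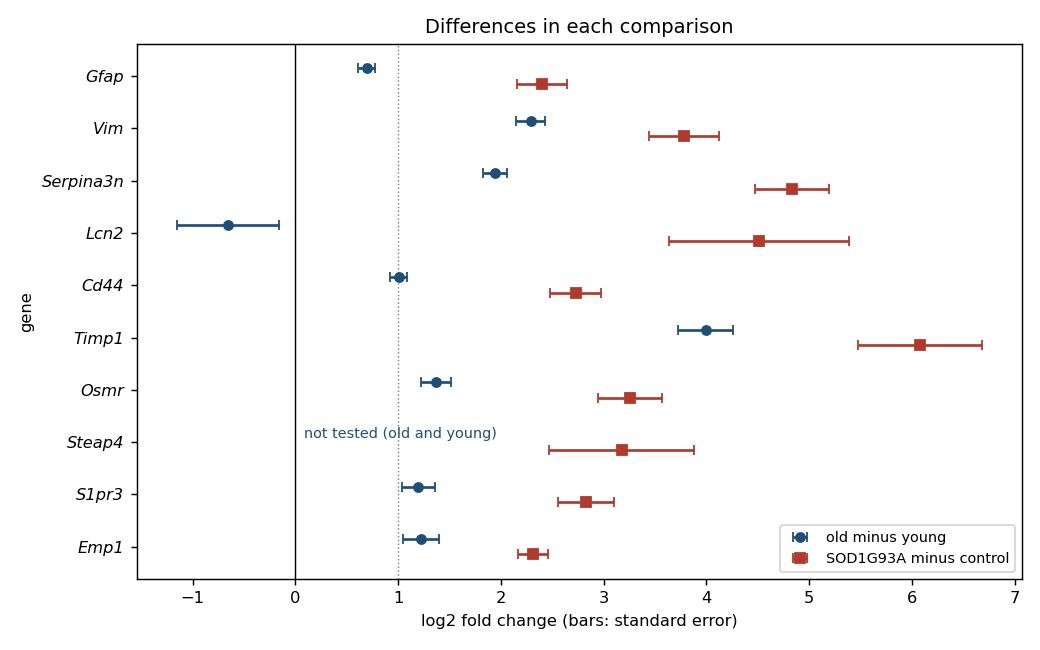
Log2 fold change of each reactive astrocyte gene in old minus young mice (blue circles, 8 against 8) and in SOD1G93A minus control mice (red squares, 3 against 3), with bars for the standard error and a dotted line at the log2 threshold of 1. Steap4 was not tested in aging. For the other 9 genes the SOD1G93A value is the higher, and the Lcn2 values lie on opposite sides of 0, although the aging value did not pass the test.

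The change in SOD1G93A mice exceeded the change in old mice for most of the set when the difference itself was tested. In one fit of all 22 libraries, 9 of the 10 genes had a more positive change in SOD1G93A mice at an adjusted p under 0.05, against 11.6% of the 14502 genes tested. The difference was 2.87 log2 units for Serpina3n (adjusted p of 7.41e-07), 1.70 for Cd44 (7.18e-06), 1.68 for Gfap (8.55e-06) and 1.86 for Osmr (0.00011) by edgeR's quasi-likelihood test. Lcn2 had the largest difference, 5.13 log2 units (SE 1.03, adjusted p of 0.000695 in the same test), which was 4.14 without SOD1G93A library A and 6.08 without control library B. For Vim, whose aging change was the second largest of the set, the difference was 1.47 log2 units with an adjusted p of 0.00124, and for Emp1 it was 1.06 with an adjusted p of 0.00916 in edgeR's quasi-likelihood test.

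Timp1 and Steap4 were the genes for which the comparisons were hardest to tell apart. Timp1 differed by 2.04 log2 units (SE 0.746, adjusted p of 0.0452 in edgeR's quasi-likelihood test), and the adjusted p rose to 0.116 without control library A, 0.0882 without control library B, 0.0953 without SOD1G93A library A and 0.0727 without SOD1G93A library C. Steap4 differed by 1.18 log2 units (SE 1.05, adjusted p of 0.446 in the same test), a value that its counts do not fix well. Kit, sex and age differ between the experiments along with the condition, so their parts in these differences cannot be told apart.

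Ordered by level per length, the set kept Gfap at its head and Steap4 at its foot in every group. These levels are FPKM, in which fragments are divided by the length of the transcript and by the size of the library. In young mice the mean was 660 FPKM for Gfap (SD 72.8, n = 8), 47.7 for Vim, 24.9 for Serpina3n and 6.90 for Cd44, and the ranges of these neighbours did not overlap. Below Cd44, the ranges of Emp1, Lcn2, S1pr3 and Osmr overlapped from each to the next, at means of 2.46, 2.26, 1.60 and 1.29 FPKM. Timp1 followed at 0.388 FPKM and Steap4 at 0.0588 FPKM.

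In old mice Gfap was at 1070 FPKM (SD 199, n = 8) and Vim at 230 FPKM, and Timp1 stood at rank 5 of the set with 6.28 FPKM, where it held rank 9 in young mice. In SOD1G93A mice Gfap was at 3399 FPKM (SD 984, n = 3), Vim at 803 FPKM and Serpina3n at 743 FPKM, and the ranges of Vim and Serpina3n overlapped. Timp1 stood at rank 4 there with 36.3 FPKM, with a range that overlapped that of Cd44 at 24.2 FPKM. When CPM were instead divided by the length of all annotated exons, Serpina3n stood above Vim in all 4 groups.

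**Figure D4:**
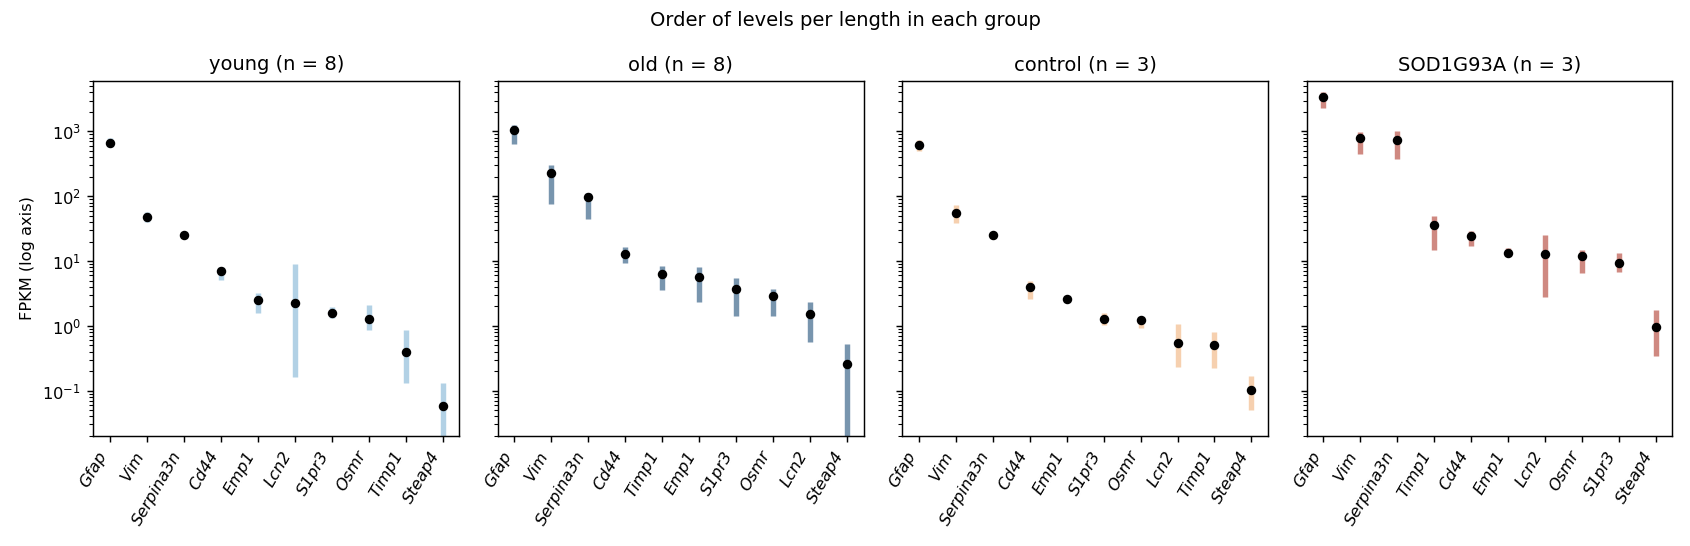
Level per length of the 10 genes in each group, as FPKM on a log axis, ordered from high to low within the group. Dots are means and vertical bars run from the lowest to the highest library, where a bar that reaches the axis foot has a library at 0. Gfap is first and Steap4 last in each group, and Timp1 holds rank 9 in young mice, rank 5 in old mice and rank 4 in SOD1G93A mice.

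Other gene lists, written from general knowledge, place the set among known markers. Of 12 further genes raised in reactive astrocytes, 9 were higher in old mice and 11 in SOD1G93A mice, with none lower. Over all genes tested, 13.5% were higher in old mice and 18.4% in SOD1G93A mice. This list, and not the list of neuroinflammatory genes that follows, holds C3. C3, which encodes complement component 3, had a log2 fold change of 1.31 in aging (adjusted p of 2.32e-08) and 2.94 in SOD1G93A mice (adjusted p of 0.000348), and Nes, which encodes the filament protein nestin, had 1.03 and 1.91 (adjusted p of 4.30e-07 and 0.000442, edgeR's quasi-likelihood test). Genes first listed for neuroinflammatory reactive astrocytes, called A1, were higher for 10 of 11 tested in aging and 9 of 11 in SOD1G93A mice. Among them H2-D1, a class I histocompatibility gene, had log2 fold changes of 1.18 and 1.75, and Serping1, an inhibitor of complement C1, of 1.31 and 3.46.

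Genes first listed for ischemic reactive astrocytes, called A2, were higher for 6 of 7 tested in aging and 7 of 9 in SOD1G93A mice. Over all genes tested the shares were 13.5% and 18.4%. Cd109, a surface protein of this list, had log2 fold changes of 1.98 and 3.95. The median log2 fold change was 0.94 and 1.28 for the A1 and A2 lists in aging and 1.59 and 2.40 in SOD1G93A mice. These medians cover tested genes only, and neither list holds Emp1 or C3, which were counted elsewhere. No A1 or A2 gene was lower at an adjusted p under 0.05, which held for 12.9% of genes tested in aging and 15.5% in SOD1G93A mice.

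The markers of resting astrocytes were followed as a list of their own. Of 16 homeostatic astrocyte markers tested in aging, 6 were higher and 3 lower, none past a log2 fold change of 1, with a median of 0.05. Over all genes tested in aging, 13.5% were higher and 12.9% lower, so 3 lower of 16 was not far from that share. Sox9, a transcription factor of the astrocyte lineage, had a log2 fold change of 0.35 (adjusted p of 2.53e-06), and the potassium channel gene Kcnj10 and the gap junction gene Gja1 had -0.25 and -0.23 (adjusted p of 0.00136 and 0.00163, edgeR's quasi-likelihood test). In SOD1G93A mice 9 of the 16 were higher and none lower, with a median of 0.42, and 4 were higher without control library A and 5 without control library C. Over all genes tested in SOD1G93A mice, 18.4% were higher and 15.5% lower. The 4 past a log2 fold change of 1 were Aqp4 (1.40), Sox9 (1.3), Mlc1 (1.15) and Aldh1l1 (1.09), which encode a water channel, the lineage factor, a membrane protein of astrocyte endfeet and a folate enzyme.

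Genes of the signals known to act on reactive astrocytes were followed as a list, whose median log2 fold change was 0.36 in aging and 1.80 in SOD1G93A mice. Of 16 listed, 10 could be tested in aging, of which 6 were higher and 1 lower, and 13 could be tested in SOD1G93A mice, of which 10 were higher and 2 lower. Over all genes tested, 13.5% were higher and 12.9% lower in aging, and 18.4% and 15.5% in SOD1G93A mice. With no filter on low counts 11 of the 16 were higher in aging, and the lower ones in SOD1G93A mice went to 0 without control library B or C or SOD1G93A library C. Socs3, a target and feedback inhibitor of STAT3, had a mean of 2.0 CPM in young, 6.17 in old, 1.19 in control and 26.0 in SOD1G93A mice, with log2 fold changes of 1.61 (adjusted p of 8.21e-05) and 4.50 (adjusted p of 0.000274, edgeR's quasi-likelihood test). Stat3 itself had log2 fold changes of 0.26 and 0.93, Bcl3, a cofactor of NF-kB, of 1.84 and 4.16, and the complement gene C1qa, made by microglia, of 2.09 and 3.59. By edgeR's quasi-likelihood test, Jak2 was lower in aging, at a log2 fold change of -0.19 with an adjusted p of 0.0156. In the same test Lifr and Jak1 were lower in SOD1G93A mice, at -0.40 and -0.37 with adjusted p of 0.0312 and 0.0245. Il6 was at or near 0 counts throughout, with a mean of at most 0.0866 CPM in any group.

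**Figure D5:**
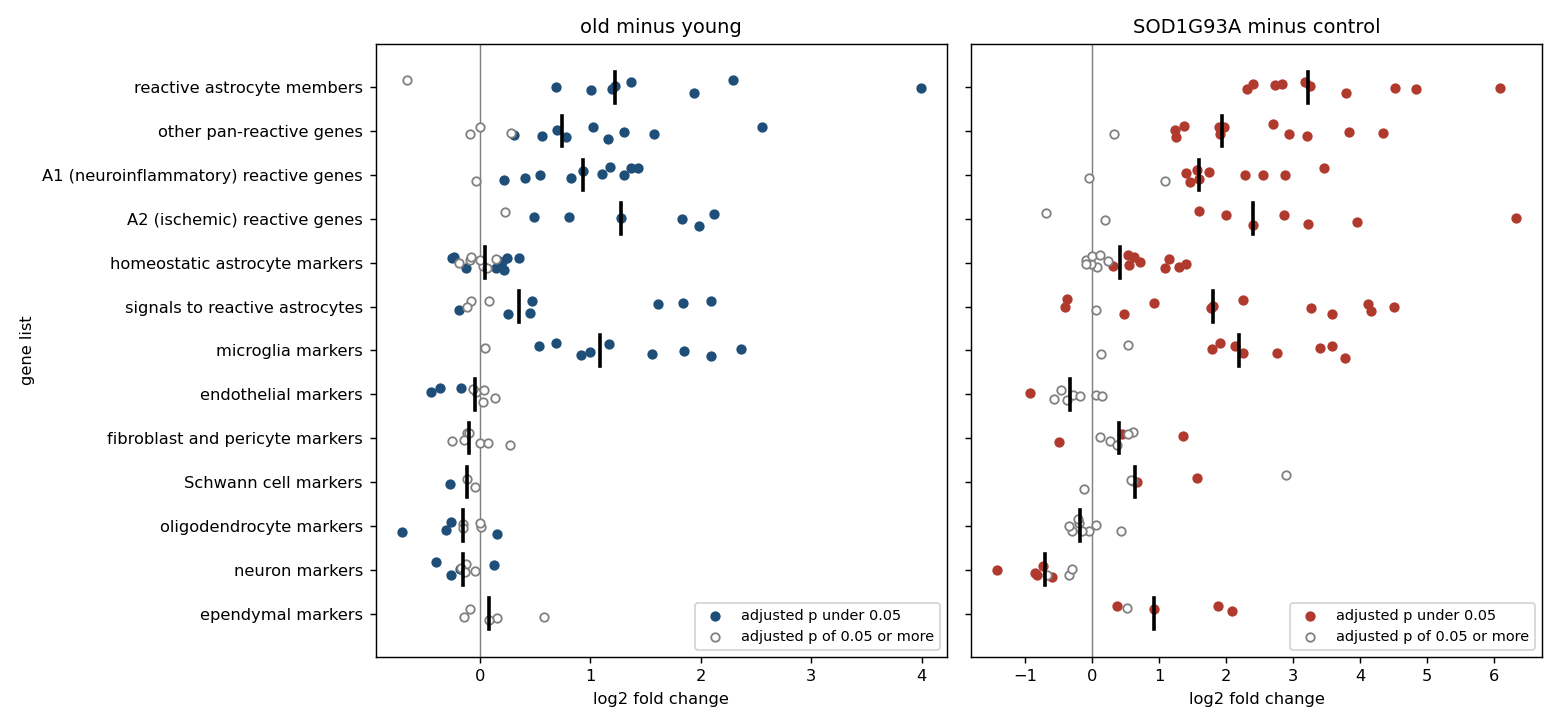
Log2 fold change of each tested gene of the reactive astrocyte set and of the other lists, in old minus young mice (left) and SOD1G93A minus control mice (right). Filled points passed an adjusted p of 0.05, open points did not, vertical scatter has no meaning, and black bars are list medians. The medians of the reactive set are 1.22 and 3.22, those of the homeostatic astrocyte markers 0.05 and 0.42, and those of the microglia markers 1.08 and 2.19.

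Markers of other cells also moved. The counts below stand beside 13.5% of all genes tested higher and 12.9% lower in aging, and 18.4% and 15.5% in SOD1G93A mice. The summed level of 10 microglia markers ranged from 369 to 411 CPM in young, 619 to 1032 CPM in old, 376 to 459 CPM in control and 1526 to 2930 CPM in SOD1G93A mice, with 9 of 10 genes higher in aging and 8 of 10 in SOD1G93A mice. The part of microglia in the levels of genes that they also make, such as Vim and Cd44, was not tested. Of 8 neuron markers, 1 was higher and 3 lower in aging, with 5 lower without old library F, and 5 were lower in SOD1G93A mice, with 3 lower without control library B or SOD1G93A library C. Ependymal markers, from cells that line the central canal and also make Vim, were not past the test in aging for any of 5 and were higher for 4 of 5 in SOD1G93A mice, a count that fell to 0 without control library A or C or SOD1G93A library A or C. For the endothelial, the fibroblast and pericyte, the Schwann cell and the oligodendrocyte markers, at most 3 genes of a list passed in either direction in either comparison, and no neutrophil marker had enough counts to be tested.

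Within the old mice, the genes were related to the microglia markers library by library. Over the 8 old libraries, the log2 CPM of Vim and the log2 summed microglia markers had a Pearson's r of 0.984 (exact permutation p of 0.000322) and a Spearman's rho of 0.929 (exact permutation p of 0.00223, adjusted over 10 genes 0.0112). Timp1 had an r of 0.881 and a rho of 0.929 (exact permutation p of 0.000942 and 0.00223, adjusted 0.0047 and 0.0112). Gfap had an r of 0.916 and a rho of 0.857 (exact permutation p of 0.0126 and 0.0107, adjusted 0.0314 and 0.0357). No other gene of the set passed by rank, whereas 8 of the 10 passed an adjusted p under 0.05 by Pearson's r in the exact permutation test. Without libraries C and F, the 2 farthest from the median of the microglia sum, r was 0.873 for Vim, 0.863 for Gfap and 0.748 for Timp1, with exact permutation p of 0.0181, 0.0153 and 0.1. In the same 6 libraries r dropped from 0.934 to 0.236 for Serpina3n and from 0.860 to -0.139 for S1pr3, so these 2 relations rested on libraries C and F. Emp1 had not passed by Pearson's r over the 8 libraries (adjusted permutation p of 0.0862). Its r went from 0.735 to -0.930 in the 6 libraries (exact permutation p of 0.0153). By rank, none of the 10 genes passed the adjusted p without F and only 1 did without A, B, E or H. Fewer libraries give a larger permutation p for the same rho, so these counts do not show whether the relation leaned on single libraries.

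The other 9 genes were also set against Gfap itself over the 8 old libraries. None passed an adjusted p under 0.05 by rank or by Pearson's r, and the unadjusted permutation p was under 0.05 by rank for Vim (rho 0.881, exact p of 0.00724) and Timp1 (rho 0.738, exact p of 0.0458). Without libraries F and H, r with Gfap went to 0.512 for Vim, 0.093 for Osmr and -0.077 for Cd44, and from 0.659 to 0.691 for Timp1.

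The genes whose pattern over all 22 libraries was most like 3 of the set were sought among the 13610 genes tested in both comparisons. Likeness was the root mean square difference of log2 CPM after taking each gene relative to the young and the control mean. For Gfap they were Plin2, Ctsl and Prdx6, at 0.141, 0.149 and 0.153 log2 units, where the median gene was at 1.02. For Vim they were the microglial genes Tyrobp, Mpeg1 and Trem2, at 0.174, 0.211 and 0.224 log2 units, where the median gene was at 1.98. For Serpina3n the nearest genes were farther, Cd109, Ccl6 and Nupr1 at 0.376, 0.382 and 0.383 log2 units, where the median gene was at 2.13.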

How the data were processed

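Whole spinal cords of 22 mice were sequenced with 1 library per mouse on an Illumina HiSeq platform. The authors aligned reads to the mm10 genome with STAR and estimated gene counts with RSEM and Ensembl 88 gene models, and SAMtools 1.3 is named per the labels. They deposited expected counts per gene, without normalization, and a table of log2 values, the log2 of FPKM plus 1. Columns name the group and not the replicate number, so libraries were assigned to groups alone and lettered. No pair of libraries of a group was alike within sampling noise, with a chi-square over its degrees of freedom of at least 2.36.

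Expected counts were rounded (all were whole as deposited). For each comparison, genes were kept by filterByExpr with a minimum count of 10, scaled by TMM and tested with edgeR's quasi-likelihood test with Benjamini-Hochberg adjustment, using the study's thresholds, a log2 fold change beyond 1 and an adjusted p under 0.05. The difference between the comparisons was an interaction term in a fit of all libraries. Relations within old mice used log2 CPM with a prior count of 2 and exact two-sided permutation tests. FPKM were recovered from the log2 values. Symbols and positions came from GENCODE M21, which holds 21919 of the 21995 genes, and promoter windows from RefSeq.

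The genes and lists were chosen with earlier results of these data known. Named besides the 10 genes are at most 4 genes of each list with the smallest adjusted p, and the 3 nearest genes to Gfap, Vim and Serpina3n. Mouse Sod1, Syn1, Elane, Retnlg, Ltf, Il6, Jak1, Jak2, Lifr and the Serpina3 copies were chosen after their values were seen. On simulated counts the fit recovered 100% of 200 changed genes among 13647 with the aging design and 95% among 14386 with the ALS design. False calls were 3.85% and 5% of calls. The changed genes lay above a set mean count and moved by 1.5 log2 units, so lower counts and smaller changes were not covered. Alternatives were RLE factors, no filter, a filter of 10 counts in every library, DESeq2, a fit of all libraries, limma on the log2 values, no fold threshold, and each library left out. Fits used edgeR 4.0.16, DESeq2 1.42.0 and limma 3.58.1 under R 4.3.3, and tables and figures used pandas 2.3.3, scipy 1.17.1 and matplotlib 3.10.9 under Python 3.11.15. The result for 1 item is not reported here.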

Additional observations from a re-analysis of the deposited data

Results flagged for a closer look

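Old library F lay far below the other old libraries for 3 genes by Dixon's test for a single outlier in a group. Vim was at 132 CPM there against 253 to 355 CPM in the other 7 old libraries. Serpina3n was at 106 CPM against 185 to 252 CPM, and Cd44 was at 40.1 CPM against 53.2 to 63.2 CPM. Young library B lay far above the other young libraries for Lcn2, at 8.76 CPM against 0.226 to 2.41 CPM. These 4 were found among 20 sets of 8 libraries, where chance alone marks about 1 in 20, and the 3 of library F are not independent since they share a mouse.

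The change in SOD1G93A mice minus the change in old mice passed the interaction test of edgeR's quasi-likelihood fit for 9 genes. In log2 units it was 5.13 for Lcn2, 2.87 for Serpina3n, 2.04 for Timp1, 1.86 for Osmr, 1.70 for Cd44, 1.68 for Gfap, 1.60 for S1pr3, 1.47 for Vim and 1.06 for Emp1. Each library kit was used in a single experiment, so kit and experiment cannot be told apart here.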

How the results depend on the processing

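The count of genes higher in old mice past both thresholds stayed between 6 and 8 of the set under 22 of 23 alternatives, and between 6 and 7 when a library was left out. It was 3 with limma on the deposited log2 values, where Cd44, Emp1, Osmr and S1pr3 fell under the fold threshold with log2 differences of 0.82, 0.93, 0.74 and 0.81 on a scale that understates low genes. The count in SOD1G93A mice was 7 to 10, with 7 where genes needed 10 counts in every library, which left Lcn2, Timp1 and Steap4 untested. The interaction count was 8 or 9. Of 413 refits of single genes, 407 kept their direction and their side of the adjusted p threshold, whatever the fold, 5 passed it no longer, all of them the Timp1 interaction, and Lcn2 in aging turned to 0.16 without young library B, with a range of -0.85 to 0.16 when a library was left out. For relations within old mice, the count of genes related to Gfap went from 0 to 1 on the log2 FPKM values, with 0 to 1 when a library was left out, and the count related to the microglia markers went from 3 to 0 to 3 when a library was left out. The order of levels per length kept 20 of 40 places with CPM over exon length. Of 824 refits of list counts, 80 moved by more than 1.5 times, 64 of them from a count of 3 or fewer. Under another tool or filter, homeostatic astrocyte markers higher in aging went from 6 to 3 in a fit of all libraries and with limma, signal genes higher in aging from 6 to 11 with DESeq2 and signal genes higher in SOD1G93A mice from 10 to 5 where 10 counts were needed in every library. No paired analysis was possible because the columns carry a library code and not the replicate number of the labels. Depth limits Steap4, Lcn2 and Timp1, whose reference libraries held few counts, and whole tissue limits every value to a sum over cells.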
